A study of Mus musculus with 12 samples.

Results

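Adipokines are the hormones and signalling proteins that fat cells release, and the genes of 10 of them were followed here through 12 RNA-seq libraries of 3T3-L1 adipocytes. They were Adipoq, Retn, Lep, Cfd, Rbp4, Agt, Nampt, Apln, Rarres2 and Lcn2, taken by gene symbol from a deposited table of 27473 counted features, and each of the 10 symbols was carried by 1 feature. 3T3-L1 is an established mouse fibroblast line that turns into fat-storing adipocytes when treated with dexamethasone, IBMX and insulin. Lentivirus was added to the differentiated cells on day 8, and RNA was taken 4 days later. The 4 groups of 3 libraries were GFP and Dnmt3a, which received GFP or the DNA methyltransferase Dnmt3a from the pCDH vector, and shScr and shDnmt3a, in which the hairpin was scrambled or directed at Dnmt3a. All 4 groups therefore carried lentivirus and had the same differentiation protocol, and each manipulated group had a control with its own kind of vector. The study used 2 hairpins against Dnmt3a, and the sources used here state neither which of them these libraries carried nor whether libraries stem from 1 differentiation or from separate cultures, and a p-value here reflects library-to-library spread that may be technical.

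Adipokines reach the blood from adipose tissue and act on liver, muscle, vessels and brain, and several are used as readouts of how mature or how inflamed a fat cell is. Adiponectin (Adipoq) is made almost solely by adipocytes and sensitises other tissues to insulin. Resistin (Retn) opposes insulin action in mice, leptin (Lep) reports fat stores to the brain, and adipsin (Cfd) is complement factor D, the serine protease that starts the alternative complement pathway. Angiotensinogen (Agt) is the precursor of the angiotensin peptides, apelin (Apln) is the ligand of the receptor Aplnr, and chemerin (Rarres2) is a chemoattractant that signals through Cmklr1. Nampt is both a secreted protein, visfatin, and the enzyme that recycles nicotinamide into NAD. Rbp4 carries retinol in the blood, and lipocalin 2 (Lcn2) binds bacterial iron carriers and belongs to the acute phase response.

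Library totals ran from 29084732 to 47341091 counts. Dnmt3a itself rose on overexpression (log2 fold change 4.88, standard error 0.0412, adjusted p = 4.18e-43) and fell on knock-down (log2 fold change −1.04, standard error 0.0462, adjusted p = 7.71e-13), both tested by the quasi-likelihood method of edgeR and adjusted after Benjamini and Hochberg over all features tested. Adipocyte markers were high in every group, with 18 genes such as Fabp4 and Plin1 summing to 53740 to 71430 CPM (TMM-scaled counts relative to library size). The desaturase gene Scd1 made up a large part of that sum, with group means of 25010 CPM in shScr, 26310 in shDnmt3a, 31620 in GFP and 32650 in Dnmt3a. The 10 macrophage and leukocyte markers summed to 24.6 to 35.2 CPM over the 12 libraries, and Emr1, a defining macrophage marker, had no count in any of them.

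The adipokine genes spanned a very wide range of abundance. Per kilobase of counted feature, and averaged over the 12 libraries, Cfd stood at 4060 CPM and was number 5 of the 20379 features that had a count, and Adipoq stood at 1622 CPM and was number 10. Rarres2 (314.5 CPM per kilobase), Agt (175.8) and Nampt (138.4) followed. The place of Rarres2 depends on its counted feature of 3618 bases, which is longer than its 708 bases of merged exons in GENCODE vM1. Apln at 24.7 and Retn at 19.6 CPM per kilobase lay lower. Lcn2 was measured at 0.741 and Lep at 0.127 CPM per kilobase, with 9 to 42 and 8 to 26 counts per library, so that their values carried wide errors. Rbp4 had 2 counts in all, 1 in a GFP library and 1 in a Dnmt3a library, and it was not tested. A count of 0 in a library allows up to 3 counts, which correspond to 0.063 to 0.106 CPM in these libraries, counting error only. Together the 10 genes took 0.755% ± 0.0249 of the TMM-scaled counts in GFP (SD, n = 3), 0.939% ± 0.0373 in Dnmt3a, 0.770% ± 0.0353 in shScr and 0.713% ± 0.0130 in shDnmt3a.

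Dnmt3a adds methyl groups to cytosines that are followed by guanine (CpG), so the stretch before each start site is shown for the genes whose values are described at length below. Of the 10 genes, 9 had a promoter entry in RefSeq (GRCm38.p6), and Rbp4 had 2, which made 10 entries. All 10 matched the mm9 genome exactly at 1 place. mm9 is the build that the authors used, and the positions here are of mm9. Each sequence is the 250 bases before the start site, written 5′ to 3′ in the direction of the gene, with every CpG in capitals. Apln lies on the minus strand (chrX:45388031-45388280), Retn on the plus strand (chr8:3655520-3655769), Adipoq on the plus strand (chr16:23146359-23146608), Cfd on the plus strand (chr10:79353348-79353597) and Lcn2 on the minus strand (chr2:32243260-32243509).
Apln: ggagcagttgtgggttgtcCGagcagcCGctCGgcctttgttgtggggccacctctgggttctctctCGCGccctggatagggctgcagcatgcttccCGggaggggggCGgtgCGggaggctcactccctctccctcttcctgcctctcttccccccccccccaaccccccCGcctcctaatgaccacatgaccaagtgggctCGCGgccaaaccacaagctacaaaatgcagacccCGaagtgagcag
Retn: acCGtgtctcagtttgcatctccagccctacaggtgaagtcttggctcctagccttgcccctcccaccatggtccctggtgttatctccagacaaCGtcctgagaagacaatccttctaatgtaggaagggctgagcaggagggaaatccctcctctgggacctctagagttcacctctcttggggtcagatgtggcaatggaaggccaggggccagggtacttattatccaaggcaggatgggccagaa
Adipoq: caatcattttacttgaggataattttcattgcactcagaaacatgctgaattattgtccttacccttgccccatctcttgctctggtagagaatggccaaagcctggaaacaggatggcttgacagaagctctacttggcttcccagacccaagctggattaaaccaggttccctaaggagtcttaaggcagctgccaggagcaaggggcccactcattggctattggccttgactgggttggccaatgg
Cfd: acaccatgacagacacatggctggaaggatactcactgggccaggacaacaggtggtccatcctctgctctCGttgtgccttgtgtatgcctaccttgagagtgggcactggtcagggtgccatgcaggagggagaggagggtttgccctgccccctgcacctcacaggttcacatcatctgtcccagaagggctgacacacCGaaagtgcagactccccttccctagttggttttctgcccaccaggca
Lcn2: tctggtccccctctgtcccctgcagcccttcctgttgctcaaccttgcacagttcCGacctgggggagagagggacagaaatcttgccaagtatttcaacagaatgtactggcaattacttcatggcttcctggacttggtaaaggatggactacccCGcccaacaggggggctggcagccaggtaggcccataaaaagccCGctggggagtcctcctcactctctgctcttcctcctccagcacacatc

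In GENCODE vM1, whose positions match mm9, all 10 genes are protein coding. Apln spans chrX:45378323-45388030 (minus strand, 3 merged exons), Retn chr8:3655770-3660110 (plus, 5 exons), Adipoq chr16:23146609-23158101 (plus, 4 exons), Cfd chr10:79353598-79355401 (plus, 5 exons) and Lcn2 chr2:32240153-32243317 (minus, 3 exons). Agt spans chr8:127080434-127093606 (minus), Nampt chr12:33505200-33538234 (plus), Rarres2 chr6:48519697-48522669 (minus), Lep chr6:29010220-29023877 (plus) and Rbp4 chr19:38191110-38199811 (minus). The RefSeq start used for the window is that of GENCODE for Apln, Retn, Adipoq and Cfd, and in Lcn2 it lies 58 bases inside the GENCODE start.

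The window before Apln held 12 CpG and that before Retn 2, against a median of 6 over the 32851 promoters of the same length in that table. No CpG was found before Adipoq or Agt, 2 were found before Cfd and 3 before Lcn2. The windows of Lep (16 CpG) and Nampt (27 CpG) were richer, and the pair of windows for Rbp4 held 28 and 5 CpG. The GC content ran from 40.8% in the sparser Rbp4 window to 75.6% before Nampt, with a median of 52.4% over all promoters. DNA methylation was not measured in these libraries, so the CpG counts describe the sequence alone.

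**Figure D1:**
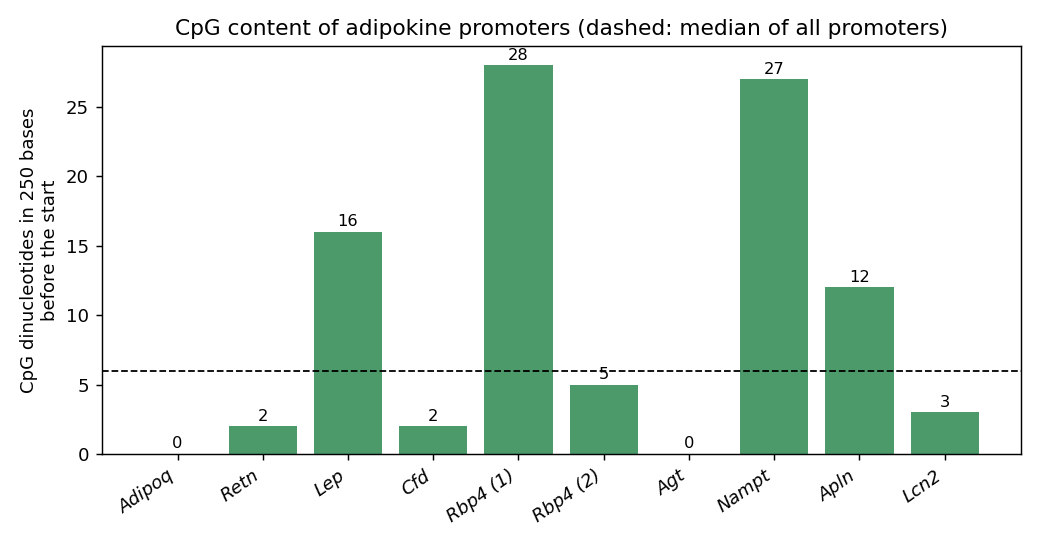
Number of CpG dinucleotides in the 250 bases before the start site, for 10 promoter entries of 9 adipokine genes (bars, number above each), with the median of 6 over all 32851 promoters as a dashed line. Nampt (27) and 1 of the 2 Rbp4 entries (28) stand far above the median, and Adipoq and Agt have none.

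Short motifs were searched on both strands of the same windows. The hypoxia response element cores ACGTG and GCGTG were each found in 2 of the 10 windows, those of Rbp4 and Nampt, and in 16.6% and 28.2% of all promoters. Neither core was found before Apln. The C/EBP motif TTNNGNAA, a core of sites for the adipogenic C/EBP factors, was present in 5 of 10 windows and 36.8% of all promoters, among them those of Adipoq, Lep and Lcn2. The NF-kB motif GGNNTTTCC was present in 1 window, that of Retn (GGAAATCCC on the opposite strand), and in 4.93% of all promoters. The TATA box TATAAA was present in 2 of 10 windows, Agt and Rbp4, and in 12.4% of all promoters, and the PPAR motif GGTCANAGG in 0 of 10 and in 1.43%. No match of a motif overlapped that of another motif in these windows. A match describes letters and is not evidence that a factor binds, and the lack of a match says only that the letters are not in this window.

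Overexpression of Dnmt3a was compared with GFP to ask how the adipokine genes respond when the enzyme is raised in mature adipocytes. Of the 9 adipokine genes tested, 7 were higher in Dnmt3a libraries and 0 were lower. The other 2, Lep and Lcn2, were not called at an adjusted p under 0.05 (unadjusted p by edgeR of 0.103 for Lep and 0.512 for Lcn2). DESeq2 gave no adjusted p for Lep or Lcn2 here, so it could not have called them lower. Over all 14168 features tested, 14.3% were called higher and 12.9% lower. The median log2 fold change was 0.29 over the 9 genes and −0.0066 over all features. The increases were modest, from 1.12-fold for Nampt to 1.36-fold for Rarres2, and none reached a log2 of 0.5. In bulk RNA, a change in the share of cells that make a hormone and a change in its RNA per cell cannot be told apart.

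Adipoq stood at 1757, 1929 and 1827 CPM in the GFP libraries and at 2378, 2428 and 2330 CPM in the Dnmt3a libraries. The groups did not overlap, and Adipoq rose 1.30-fold (log2 0.38, standard error 0.0357, adjusted p = 3.51e-10), tested, like all genes below, with edgeR. Cfd, the most abundant of the hormones, was at 3618, 3842 and 3796 CPM in GFP and at 4510, 4907 and 4287 CPM in Dnmt3a. Every Dnmt3a library lay above every GFP library, a 1.22-fold rise (log2 0.29, standard error 0.0378, adjusted p = 2.55e-07). Retn had 23.7, 26.1 and 24.7 CPM in GFP and 28.6, 32.2 and 33.2 CPM in Dnmt3a, again without overlap (log2 0.34, standard error 0.0612, adjusted p = 4.15e-05).

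Rarres2 showed the steepest rise of the 9 on overexpression. Its levels were 897.6, 945.1 and 914.8 CPM in GFP and 1232, 1251 and 1249 CPM in Dnmt3a (log2 0.44, standard error 0.0350, adjusted p = 4.97e-12). The counted Rarres2 feature of 3618 bases was longer than the 708 bases of its merged exons in GENCODE vM1, and 323 of those 708 bases overlap exons of Lrrc61 on the opposite strand. The sources used here do not say if counting was by strand, so reads of the neighbour cannot be told apart from those of Rarres2. No other adipokine gene had exons that overlap those of another gene in that annotation.

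Apln was at 62.7, 63.3 and 63.1 CPM in GFP and at 79.9, 79.1 and 81.9 CPM in Dnmt3a, with a spread within groups far below the gap between them (log2 0.35, standard error 0.0414, adjusted p = 2.67e-08). Agt, the angiotensin precursor, had 305.1, 304.0 and 311.8 CPM against 368.9, 368.9 and 370.5 CPM (log2 0.27, standard error 0.0372, adjusted p = 5.76e-07). For Nampt the increase was the smallest of those called, from 610.8, 653.5 and 657.3 CPM to 714.7, 722.3 and 702.4 CPM (log2 0.16, standard error 0.0374, adjusted p = 0.00129). In all of these genes the 3 Dnmt3a libraries lay above the 3 GFP libraries. The share of all features whose groups separate was not counted, so separation, here and on knock-down, is description only.

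Lep and Lcn2 had few counts and were not called, with wide intervals. Lep had 15, 18 and 22 counts in GFP and 11, 8 and 11 in Dnmt3a (log2 −0.61, 95% interval −1.32 to 0.104, adjusted p = 0.225). That interval ends below the smallest called rise, a log2 of 0.16 for Nampt. Lcn2 had 23, 34 and 24 counts in GFP and 25, 10 and 24 in Dnmt3a (log2 −0.20, 95% interval −0.795 to 0.393, adjusted p = 0.674). In both genes the groups overlapped.

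**Figure D2:**
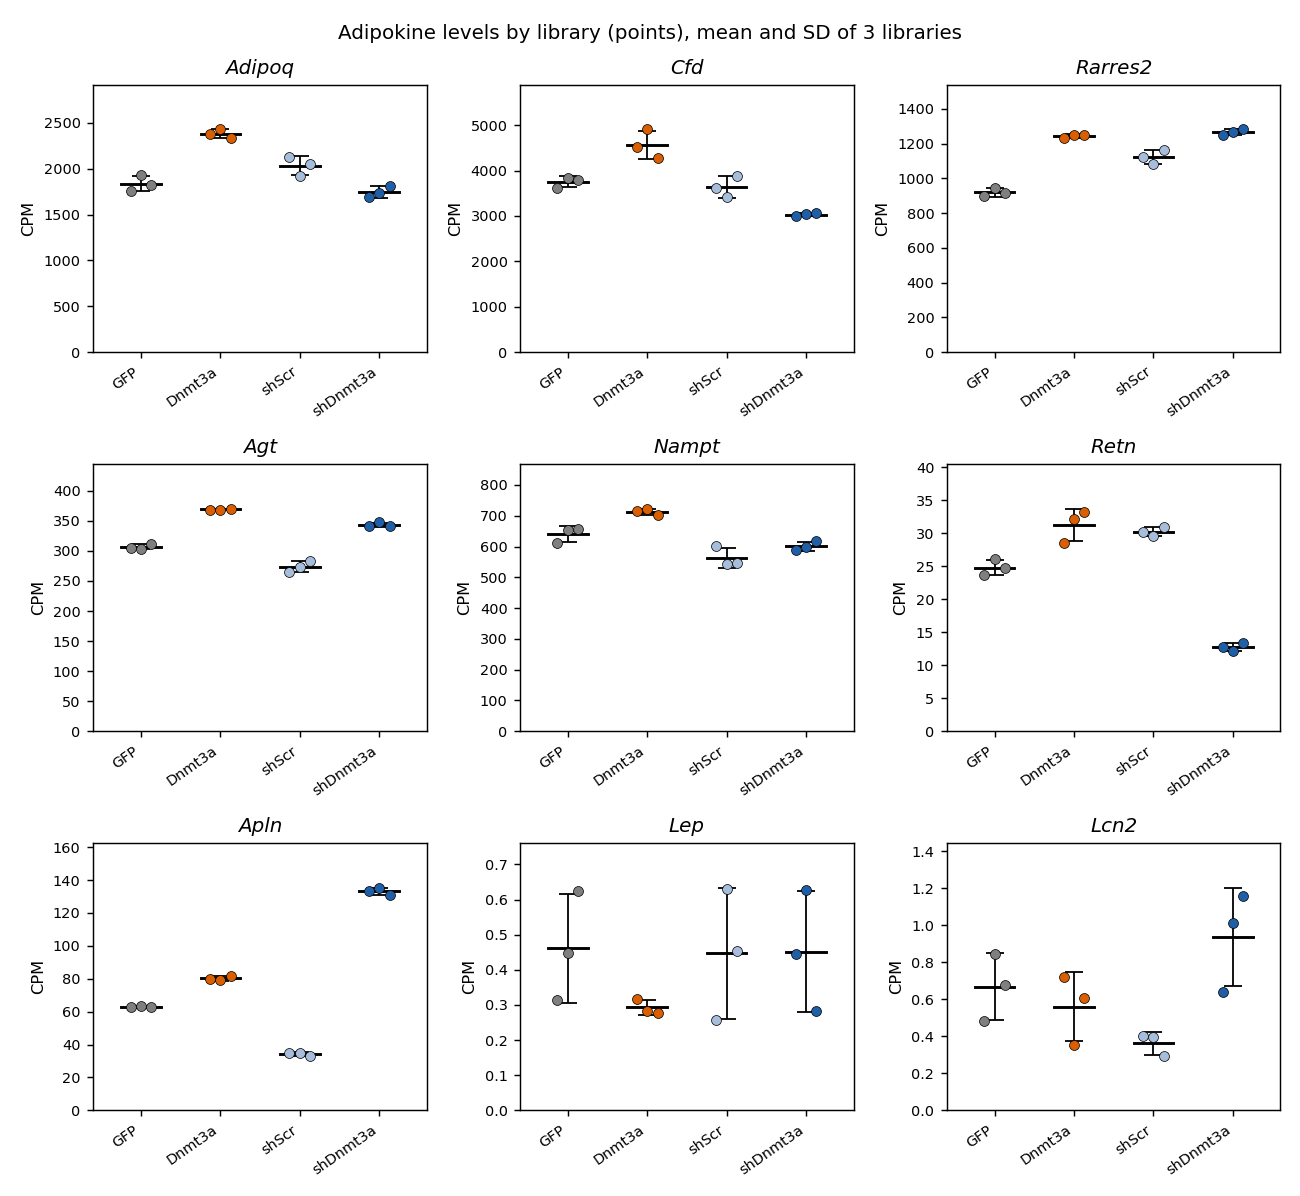
Level of 9 adipokine genes in CPM (y axis, starting at 0 in each panel) in the 4 groups, each point 1 library, with the mean (thick line) and SD (bars) of 3 libraries. Apln is lowest in shScr and highest in shDnmt3a, Retn is lowest in shDnmt3a at 12.1 to 13.4 CPM, and the points of Lep overlap between groups.

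Knock-down of Dnmt3a asked the converse question in cells with hairpin vectors, shDnmt3a against shScr. The adipokine genes parted here: 4 were higher (Apln, Lcn2, Agt and Rarres2), 3 were lower (Retn, Cfd and Adipoq), and 2 were not called (Nampt and Lep). Over all 14115 features tested, 23.3% were called higher and 22.5% lower. The median log2 fold change was 0.0945 over the 9 genes and −3e-04 over all features. Apln, Lcn2 and Retn changed by more, in absolute log2 fold change, than the 0.875 at the 95th percentile of all features.

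Apln rose 3.88-fold. It was at 34.9, 34.6 and 33.1 CPM in the shScr libraries and at 133.2, 135.2 and 130.7 CPM in the shDnmt3a libraries. The SD was 0.948 CPM within shScr and 2.27 CPM within shDnmt3a, far below the gap between the groups (log2 1.96, standard error 0.0407, adjusted p = 8.27e-18). The counted feature has 3148 bases and the 3 merged exons of the gene have 3149.

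Retn stood at 30.2, 29.6 and 31.0 CPM in shScr and at 12.8, 12.1 and 13.4 CPM in shDnmt3a. It fell by 57.9% with no overlap between the groups (log2 −1.25, standard error 0.0620, adjusted p = 3.85e-12), and 0.383% of the features tested had a lower log2 fold change.

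The abundant hormones Cfd and Adipoq moved less. Cfd went from 3611, 3420 and 3886 CPM to 2992, 3037 and 3063 CPM and fell by 16.7% (log2 −0.26, standard error 0.0368, adjusted p = 7.85e-06). Adipoq went from 2123, 1918 and 2054 CPM to 1686, 1736 and 1815 CPM and fell by 14.1% (log2 −0.22, standard error 0.0373, adjusted p = 7.70e-05). In both genes every shDnmt3a library lay below every shScr library.

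Agt was at 264.6, 274.0 and 282.5 CPM in shScr and at 341.1, 347.4 and 341.1 CPM in shDnmt3a (log2 0.33, standard error 0.0348, adjusted p = 2.43e-07). Rarres2 was at 1122, 1085 and 1162 CPM in shScr and at 1249, 1266 and 1282 CPM in shDnmt3a (log2 0.17, standard error 0.0323, adjusted p = 1.99e-04). Both groups of libraries were separate in both genes. Lcn2 had 14, 15 and 9 counts in shScr and 23, 42 and 41 in shDnmt3a, a 2.55-fold rise from a very low level (log2 1.35, standard error 0.302, adjusted p = 0.00107).

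Nampt lay close to the threshold, at 600.2, 543.5 and 545.5 CPM in shScr and 587.1, 599.3 and 616.8 CPM in shDnmt3a (log2 0.0945, standard error 0.0386, adjusted p = 0.0530). The groups overlapped through shScr replicate 1, the highest of its group. Without that library the log2 fold change was 0.14 (adjusted p = 0.00163), and without shDnmt3a replicate 1 it was 0.11 (adjusted p = 0.0426), both called. The other 4 of 6 removals left it uncalled. Over all 6 the log2 fold change ran from 0.0673 to 0.139, and the adjusted p reached 0.213. Lep had 9, 24 and 14 counts in shScr and 16, 26 and 10 in shDnmt3a (log2 0.02, 95% interval −0.697 to 0.744, adjusted p = 0.967), so changes within that interval are not excluded.

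**Figure D3:**
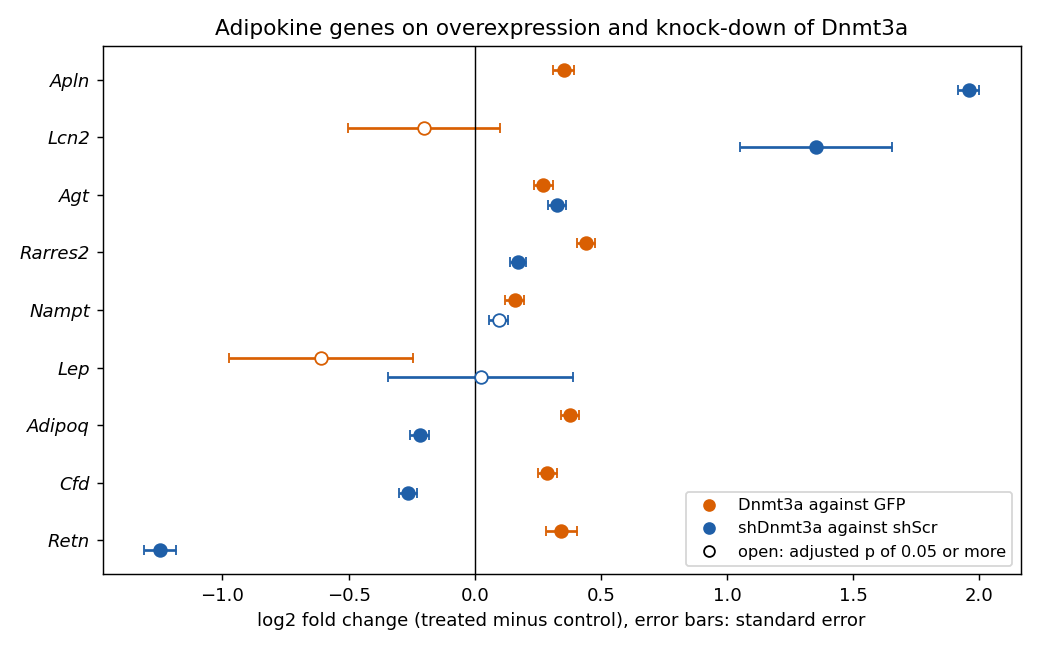
Log2 fold change (x axis) with its standard error (bars) of 9 adipokine genes on overexpression (Dnmt3a against GFP) and knock-down (shDnmt3a against shScr), with open points for an adjusted p of 0.05 or more. Apln (0.35 and 1.96), Agt and Rarres2 are to the right in both comparisons, while Adipoq, Cfd and Retn are to the right on overexpression and to the left on knock-down.

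Set side by side, the comparisons moved 3 genes in opposite directions and 3 in the same direction. Adipoq, Cfd and Retn were higher when Dnmt3a was raised and lower when it was reduced, as were 6.03% of the 13893 features tested in both comparisons. Agt, Apln and Rarres2 were higher in both, as were 3.64% of those features. Lower on overexpression and higher on knock-down were 3.63% of those features and lower in both 3.1%, and 0 adipokine genes in either case. When an absolute log2 of 0.5 or more was also required, 0 adipokine genes were higher and 0 lower on overexpression, where 0.889% and 2.58% of all features tested were. On knock-down Apln and Lcn2 were higher and Retn lower by that rule, beside 7.26% and 4.27% of all features tested. Whether a gene's effects were of equal size and opposite sign was tested in 1 edgeR fit of all 12 libraries, as the log2 fold change of Dnmt3a against GFP minus that of shScr against shDnmt3a, so that both terms run from less to more Dnmt3a. A value of 0 means that raising and lowering Dnmt3a moved the gene by equal amounts in opposite directions. Dnmt3a itself changed by a log2 of 4.88 on overexpression and −1.04 on knock-down, so the manipulations were not of equal size. The difference was not scaled to them, and a value other than 0 says nothing about response per change in Dnmt3a. Of 9 adipokine genes, 7 differed from 0, where 37.2% of all 14491 features did.

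Cfd was the gene whose effects mirrored each other most closely, with a difference of 0.02 (standard error 0.0589, adjusted p = 0.828), a miss of the threshold that does not show the effects to be equal. For Adipoq the difference was 0.15 (standard error 0.0539, adjusted p = 0.0260), beside effects of 0.38 and −0.22. Retn had a difference of −0.91 (standard error 0.0897, adjusted p = 2.45e-09), its fall on knock-down being larger than its rise on overexpression. The genes that rose in both comparisons had positive differences, 2.31 for Apln (standard error 0.0549, adjusted p = 2.87e-23), 0.61 for Rarres2 (standard error 0.0464, adjusted p = 1.14e-11) and 0.59 for Agt (standard error 0.0484, adjusted p = 4.73e-11). Nampt differed by 0.25 (adjusted p = 6.08e-04) and Lcn2 by 1.15 (adjusted p = 0.0446), while Lep did not pass (−0.59, standard error 0.531, adjusted p = 0.410). The call was lost for Adipoq (0.11 to 0.15) without GFP replicate 1 or 3, Dnmt3a replicate 2, shScr replicate 2 or shDnmt3a replicate 3, and for Lcn2 (0.93 to 1.22) when any 1 of the 12 libraries was left out, except GFP replicate 2, Dnmt3a replicate 2 and shDnmt3a replicate 1.

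The control groups themselves were not alike, which bears on the order of levels over the 4 groups. In the same fit, 46.5% of all features differed between shScr and GFP, and so did 7 of the 9 adipokine genes. Vector, hairpin and any other difference between the pCDH and hairpin libraries cannot be told apart there. The largest such gap among the members was that of Apln, whose log2 level in shScr was 0.87 below that in GFP (standard error 0.0406, adjusted p = 7.45e-17). Rarres2 and Retn were higher in shScr than in GFP, by 0.30 and 0.29. Adipoq was higher by 0.15, and Agt and Nampt were lower, at −0.16 and −0.18. For Lcn2 the difference was −0.84 (adjusted p = 0.0398), and it was lost without GFP replicate 2 (−0.63) or 3 (−0.82) and without shScr replicate 1 (−0.91), 2 (−0.90) or 3 (−0.72).

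Ordered by mean, Apln ran from shScr (34.2 ± 0.948 CPM, SD, n = 3) through GFP (63.1 ± 0.303) and Dnmt3a (80.3 ± 1.47) to shDnmt3a (133.0 ± 2.27), and each step passed the test. It was therefore higher in shDnmt3a than in either control, by 1.08 on the log2 scale against GFP (standard error 0.0371, adjusted p = 9.79e-20). Retn was lowest in shDnmt3a (12.8 ± 0.619 CPM), then GFP (24.8 ± 1.18), shScr (30.3 ± 0.707) and Dnmt3a (31.3 ± 2.42), with the last pair not distinguishable (adjusted p = 0.545). Against GFP too, Retn in shDnmt3a was lower, by a log2 difference of −0.96 (standard error 0.0661, adjusted p = 8.31e-13). Agt ran from shScr (273.7 ± 8.92 CPM) through GFP (307.0 ± 4.24) and shDnmt3a (343.2 ± 3.61) to Dnmt3a (369.4 ± 0.918), each step past the threshold.

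For Adipoq the shDnmt3a level (1746 ± 65.3 CPM) did not pass the test against the GFP level (1838 ± 86.9; log2 difference 0.07, standard error 0.0382, adjusted p = 0.116), and shScr (2032 ± 104.2) and Dnmt3a (2379 ± 48.8) lay above in turn. The lower Adipoq level on knock-down was thus called against shScr and not against GFP, although leaving out GFP replicate 1 (log2 −0.11) or shDnmt3a replicate 3 (−0.10) made it pass against GFP too. Cfd was lowest in shDnmt3a (3031 ± 35.7 CPM), not distinguishable between shScr (3639 ± 234.4) and GFP (3752 ± 118.1; adjusted p = 0.496), and highest in Dnmt3a (4568 ± 314.5). Rarres2 was lowest in GFP (919.2 ± 24.0 CPM), then shScr (1123 ± 38.3), with Dnmt3a (1244 ± 10.4) and shDnmt3a (1265 ± 16.2) not distinguishable (adjusted p = 0.674). In Nampt, shScr (563.1 ± 32.2 CPM), shDnmt3a (601.1 ± 14.9) and GFP (640.5 ± 25.9) did not pass between neighbours, and Dnmt3a (713.1 ± 10.1) lay above them. Between shDnmt3a and GFP, Nampt passed without GFP replicate 1 (log2 −0.13), shScr replicate 1 (−0.09) or shDnmt3a replicate 3 (−0.11).

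No neighbouring levels of Lep or Lcn2 passed the test, apart from Lcn2 in shDnmt3a against GFP when shDnmt3a replicate 1 was left out (log2 0.71, adjusted p = 0.0494). Lep had group means of 0.293 to 0.462 CPM, and Lcn2 was at 0.362 ± 0.0614 CPM in shScr, 0.561 ± 0.188 in Dnmt3a, 0.669 ± 0.181 in GFP and 0.936 ± 0.266 in shDnmt3a. Over the 9 genes, 15 of 27 neighbouring steps were called. Neighbours were set by each gene's own means, so this count has no matching share over all features. The shares that follow are for fixed pairs of groups. Of all features in this fit, 46.5% differed between shDnmt3a and GFP, 41.6% between shScr and Dnmt3a, 45% between shDnmt3a and Dnmt3a, 26% between Dnmt3a and GFP and 45.4% between shDnmt3a and shScr.

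Genes with the pattern most like that of a member over the 12 libraries are named for the 3 members whose group means spanned a log2 of at least 1. Likeness was the root mean square difference of the log2 CPM, each gene centred on its own mean, over 14490 other features. For Apln, with an SD of 0.735 over the libraries, the nearest were Slc25a34, a mitochondrial carrier (0.0943), and Nrn1, the neuritin gene (0.147). Slc25a34 had group means of 28.3 CPM in shScr, 57.1 in GFP, 67.5 in Dnmt3a and 104.9 in shDnmt3a, the order found for Apln. For Retn, with an SD of 0.547, they were Lgmn, the lysosomal protease legumain (0.127), and Ei24 (0.129), both lowest in shDnmt3a, at 22.9 and 41.1 CPM. For Lcn2, with an SD of 0.567, they were the histone deacetylase Hdac9 (0.245) and Tmem82 (0.265), a poorer match in a gene of few counts.

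Genes that make, release, sense or regulate these hormones were followed in 14 lists. No set was tested, and the counts below are to be read beside the shares of all features called. Knock-down values in the lists are against shScr, which differed from GFP in 46.5% of all features. GFP levels are given for some of the genes below, not for all. Adipocyte markers moved with the adipokines on overexpression: 14 of 18 were higher and 0 were lower (median log2 0.19), led by the lipid carrier Fabp4 (log2 0.37) and the acyltransferase Agpat2 (0.34). Their summed level was 63310 to 63730 CPM in GFP and 68150 to 71430 CPM in Dnmt3a, a sum in which Lpl, at 7773 and 9608 CPM, also belongs to the list of other secreted factors. On knock-down the adipocyte markers split, 5 higher and 6 lower of 18, with Cidec (0.20) and Plin4 (0.16) up and Agpat2 (−0.85) and Gpd1 (−0.63) down, and the sums overlapped (53740 to 55160 CPM in shScr and 53870 to 54610 in shDnmt3a). Agpat2 averaged 1613 CPM in shScr, 895.8 in shDnmt3a and 844.6 in GFP. The part of adipocyte marker levels in the adipokine values was not tested.

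The list of hypoxia response genes, known targets of the HIF factors, had 18 of 18 genes higher on knock-down (median log2 1.37), among them carbonic anhydrase Car9 (3.23) and the prolyl hydroxylase Egln3 (2.29). Its sum was 6833 to 6984 CPM in shScr, 10270 to 10400 in GFP, 11620 to 11980 in Dnmt3a and 13740 to 13930 in shDnmt3a, the order also seen for Apln. Overexpression gave 7 higher and 3 lower of 18 (median 0.05), with Aldoa (0.31) and Bnip3 (0.24) up and Ndrg1 (−0.77) and Adm (−0.37) down. The part of hypoxia response genes in the Apln result was not tested.

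Preadipocyte and fibroblast markers were called higher in 1 and lower in 5 of 16 on overexpression, Ly6a (0.39) against the matrix genes Fn1 (−0.56) and Col1a1 (−0.50). On knock-down 5 were higher, led by Col3a1 (0.61) and Col1a1 (0.41), and 6 were lower, led by Ly6a (−1.35) and Pdgfrb (−0.49). Ly6a averaged 39.2 CPM in shScr, 15.4 in shDnmt3a and 17.6 in GFP. Their sum was 11810 to 12950 CPM in shScr and 16420 to 17010 CPM in shDnmt3a, of which Col3a1 alone made 7588 and 11590 CPM on average. It was 10680 to 11290 CPM in GFP and 10230 to 10980 CPM in Dnmt3a. Of the macrophage and leukocyte markers, 8 of 10 were tested, with 2 higher and 1 lower on overexpression (Cd53 0.80 and Cd68 0.55 up, Cd74 −0.43 down) and 3 higher and 2 lower on knock-down (Cd53 1.94 and Cd74 1.54 up, Mpeg1 −1.64 and Cd68 −0.35 down). Mpeg1 averaged 17.8 CPM in shScr, 5.71 in shDnmt3a and 3.32 in GFP. The part of these markers in the adipokine values was not tested either.

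**Figure D4:**
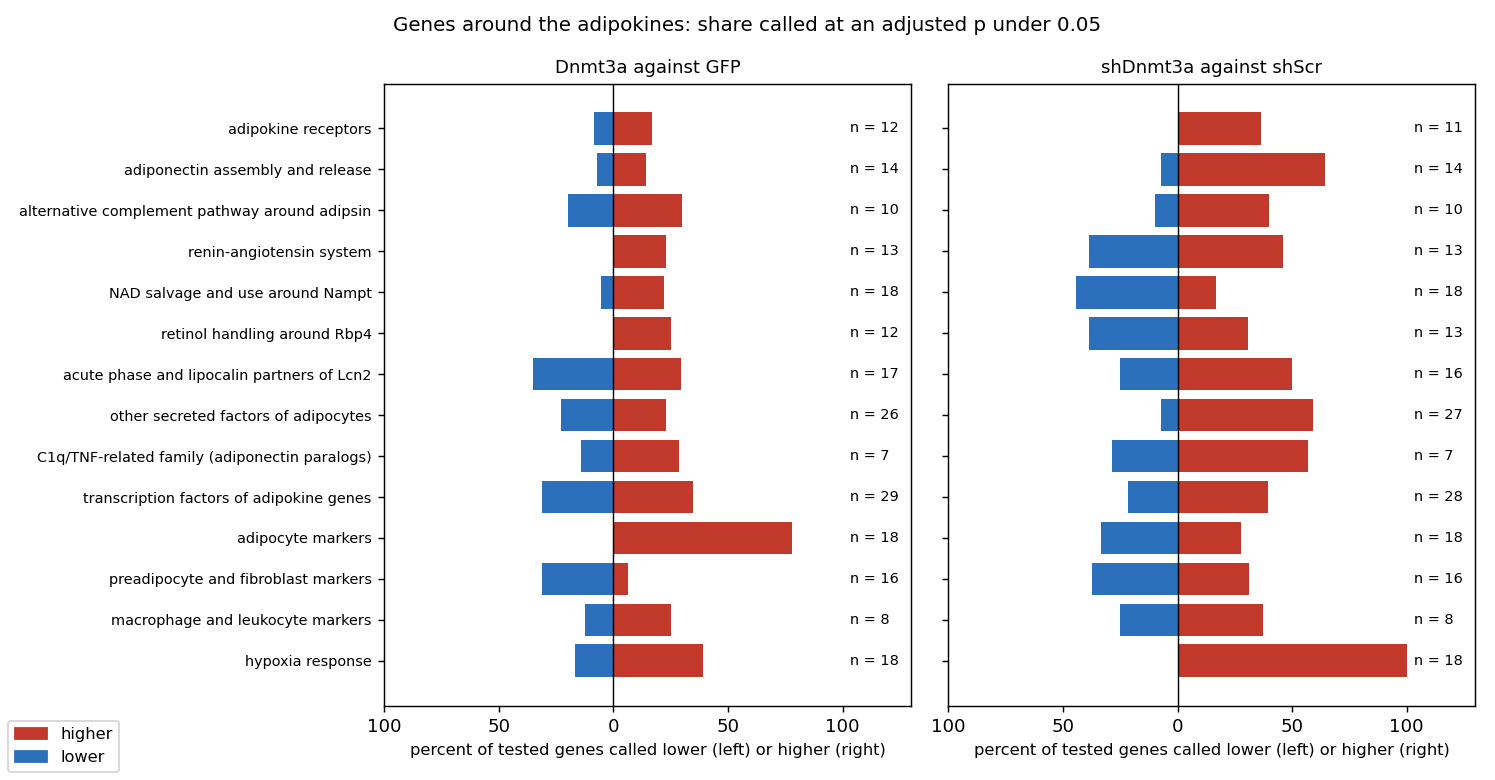
Percent of the tested genes of 14 lists called lower (left, blue) or higher (right, red) at an adjusted p under 0.05, on overexpression and knock-down, with the number tested (n) beside each bar. The adipocyte markers reach furthest to the right on overexpression (14 of 18), and the hypoxia response genes do so on knock-down (18 of 18).

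Among receptors of adipokines, the adiponectin receptors were abundant and rose in both comparisons. Adipor1 had log2 fold changes of 0.31 on overexpression and 0.40 on knock-down, from 193.5 and 182.4 CPM in the controls. Adipor2, the other adiponectin receptor, rose by 0.19 on overexpression from 1311 CPM. In all, 2 of 12 receptor genes were higher and 1 lower on overexpression, the lower being Lrp2 (−0.96, at 0.691 CPM in GFP), and 4 of 11 were higher and 0 lower on knock-down, led by the T-cadherin gene Cdh13 (0.70), which binds adiponectin. Aplnr, named here because its ligand is apelin, averaged 0.113 CPM in shScr and 0.290 CPM in shDnmt3a and was not tested.

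Adiponectin is assembled into large complexes in the endoplasmic reticulum, and 9 of 14 genes of its assembly and release were higher and 1 lower on knock-down (median log2 0.18), while Adipoq RNA was lower. The oxidase Ero1l rose from 238.2 to 730.5 CPM (log2 1.62) and the collagen lysyl hydroxylase Plod1 from 269.9 to 571.8 CPM (1.08), and the chaperone gene Canx was at −0.17. These changes are against shScr. In GFP, the other control, Ero1l averaged 730.5 CPM, the same as in shDnmt3a, and Plod1 averaged 356.1 CPM. On overexpression 2 were higher, Plod1 (0.24) and Sec23a (0.13), and 1 lower, the chaperone Hspa5 (−0.29).

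In a list of C1q/TNF-related adiponectin paralogs, which also held Emilin1, Emilin2 and other genes outside that family, 7 of 16 were tested. On knock-down 4 were higher, led by C1qtnf1 (2.11) and Emilin2 (0.96), and 2 lower, C1qtnf5 (−0.25) and Emilin1 (−0.24). On overexpression Fam132a (0.25) and C1qtnf5 (0.22) were higher and C1qtnf6 (−0.23) lower.

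Around adipsin, the genes C3 and Cfb, which supply the central component and the substrate of adipsin in the alternative complement pathway, were lower on overexpression (−0.72 and −0.39), while Cfd was higher. That list had 3 of 10 higher, including Clu (0.30) and Cd59a (0.24), and 2 lower. On knock-down 4 were higher, led by Masp1 (0.98) and Clu (0.57), and 1 lower, Cfb, at −1.03, from 37.8 to 18.5 CPM. Masp1 averaged 12.6 CPM in shScr, 24.9 in shDnmt3a and 23.6 in GFP. Cfb was thus called lower in both comparisons.

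For the renin-angiotensin system, in which Agt is the substrate, 3 of 13 genes were higher on overexpression, led by the chymase Cma1 (0.68) and the protease Ctsd (0.27), and 0 lower. On knock-down 6 were higher, led by the peptidase Mme (1.89) and Cma1 (1.30), and 5 lower, led by Ctsd (−0.44) and the receptor-associated Agtrap (−0.33).

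The enzymes of NAD salvage and use around Nampt gave 4 higher and 1 lower of 18 on overexpression, with the adenylyltransferase Nmnat1 (0.20) and the kinase Nadk (0.18) up and Parp2 (−0.20) down. On knock-down they gave 3 higher and 8 lower, with 1110020G09Rik (0.45), which the table lists under this older name of Nadk2, and Naprt1 (0.41) up and the NAD hydrolase Cd38 (−1.11) and Nmnat2 (−0.59) down. Retinol handling genes around Rbp4 gave 3 higher and 0 lower of 12 on overexpression, led by the reductase Dhrs3 (0.24) and Aldh1a7 (0.18). On knock-down 4 of 13 were higher, led by Cyp26b1 (0.84) and Bcmo1 (0.57), and 5 lower, led by Dhrs3 (−0.30) and Rxrb (−0.20).

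Acute phase and lipocalin partners of Lcn2 had 5 higher and 6 lower of 17 on overexpression, Orm1 and Serpina3n (0.43 and 0.42) against Mmp9 (−2.09, from 0.756 to 0.188 CPM) and Serpina3g (−1.30). On knock-down 8 of 16 were higher, led by Lbp (1.04) and the chemokine Cxcl1 (0.86), and 4 lower, led by Mmp9 (−1.08) and Hpx (−0.88). Cxcl1 averaged 3.70 CPM in shScr, 6.72 in shDnmt3a and 12.2 in GFP.

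Other factors that adipocytes secrete, 36 in the list, were called higher in 16 and lower in 2 of 27 cases on knock-down (median log2 0.25). Fgf21, the fasting hormone, had a log2 fold change of 3.44 from 0.214 to 2.22 CPM, and the matrix factor Ctgf one of 2.79 from 1.41 to 9.74 CPM. The lower genes were Fstl1 (−0.15) and Metrnl (−0.14, adjusted p = 0.0496). On overexpression 6 of 26 were higher, led by Pltp (0.34) and the lipase Lpl (0.31), and 6 lower, led by Ctgf (−0.69) and Adm (−0.37).

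Transcription factors known to act on adipokine genes gave 10 higher and 9 lower of 29 on overexpression, Nfkb2 (0.33) and the adipogenic receptor Pparg (0.24) against Klf5 (−1.80) and Relb (−0.85). On knock-down 11 of 28 were higher, led by Atf3 (1.16) and Bhlhe40 (0.72), and 6 lower, among them the adipocyte factor Cebpa (−0.26). Atf3 averaged 1.48 CPM in shScr, 3.35 in shDnmt3a and 10.3 in GFP. Their list median was −6e-04 on overexpression and −0.0025 on knock-down.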

How the data were processed

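RNA-seq was analysed for 12 libraries, 3 in each of the groups GFP, Dnmt3a, shScr and shDnmt3a, as the labels give them. By the study's methods and the processing notes of the submitters, ribosomal RNA was depleted and reads were aligned to mm9 with TopHat2 (2.0.14), processed with Picard (2.2.4) and SAMtools (0.1.19) and assigned to transcripts with featureCounts (1.4.6). The authors deposited whole-number counts for each feature, without normalization, beside feature lengths. Of 27473 features, 7094 had no count, and where a symbol repeats (789 symbols) the feature with the highest mean count was used. No symbol of the 10 adipokines repeats.

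The counts were scaled by TMM and tested with edgeR's quasi-likelihood test (edgeR 4.0.16, limma 3.58.1, R 4.3.3), two-sided, after edgeR's default filter (minimum count 10). Dnmt3a against GFP and shDnmt3a against shScr were each fitted on 6 libraries, and contrasts over 4 groups on all 12. Adjustment was by Benjamini-Hochberg over all features tested, and a feature was called at an adjusted p under 0.05. CPM are TMM-scaled over 12 libraries, log2 CPM use a prior count of 2, and intervals are the estimate ± 1.96 standard errors that match the F statistic. The test was checked on simulated counts. Adipokines, gene lists and tests were chosen with earlier results of these data known. All adipokines, Dnmt3a, and in each list the 2 called genes with the largest log2 fold change up and down in each comparison are named; Aplnr is the exception, and 1 list gene is not reported here. Replicate numbers were not used as pairs, since same-numbered libraries did not deviate together. The alternatives were RLE and upper-quartile factors, DESeq2 (1.42.0), edgeR's exact test, other filters, 1 fit of 12 libraries, a replicate block, counts summed per symbol, other thresholds and leaving out each library.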

Additional observations from a re-analysis of the deposited data

Results flagged for a closer look

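For 7 adipokine genes the effect of raising Dnmt3a differed from the mirror image of the effect of lowering it, by edgeR's quasi-likelihood test of the difference in 1 fit of all 12 libraries, where 37.2% of all features differed too. The difference, in log2, was 2.31 for Apln, 1.15 for Lcn2, −0.91 for Retn, 0.61 for Rarres2, 0.59 for Agt, 0.25 for Nampt and 0.15 for Adipoq. In Apln, Rarres2 and Agt both manipulations were higher than their own controls, and in Retn the knock-down effect was the larger. Dnmt3a itself changed by unequal amounts, a log2 of 4.88 on overexpression and −1.04 on knock-down, and the differences were not scaled to that. The shScr and GFP controls differed in all 7 of these genes, which bears on any comparison across vectors.

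The differences of Apln, Retn, Rarres2, Agt and Nampt were called without any one of the 12 libraries. That of Adipoq was lost without GFP replicate 1 (0.12) or 3 (0.15), Dnmt3a replicate 2 (0.14), shScr replicate 2 (0.11) or shDnmt3a replicate 3 (0.12). That of Lcn2, a gene of 9 to 42 counts per library, was lost without GFP replicate 1 (0.93) or 3 (1.17), Dnmt3a replicate 1 (0.95) or 3 (1.09), shScr replicate 1 (1.22), 2 (1.21) or 3 (1.02), or shDnmt3a replicate 2 (1.08) or 3 (0.98).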

How the results depend on the processing

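Adipokine genes called higher on overexpression numbered 7, and lower 0, under each scaling, filter, test and left-out library tried. Lep and Lcn2 could not be called there with DESeq2 or with the filter of 1 CPM in 3 libraries. On knock-down 4 or 5 were higher and 3 lower. When an absolute log2 of 0.5 or more was also required, overexpression kept 0 higher, beside 0.889% of all features tested. Knock-down kept 2 higher (Apln and Lcn2) and 1 lower (Retn), beside 7.26% and 4.27% of all features tested. Of 264 gene-wise values under alternatives, 255 kept their direction and side of the threshold, 0 lost a call, 5 gained one and 4 changed sign. The gains were all Nampt on knock-down, at 0.12 with upper-quartile factors, 0.09 without a filter, 0.10 with at least 1 CPM in 3 libraries, and without shScr replicate 1 (0.139) or shDnmt3a replicate 1 (0.113). The changes of sign were in Lcn2 on overexpression and Lep on knock-down, genes of few counts that were not called in those comparisons, over left-out libraries. Lcn2 on overexpression ranged from −0.42 to 0.0098, and Lep on knock-down from −0.31 to 0.38. In the fit of 12 libraries, shScr against GFP for Lep was −0.0251 with upper-quartile factors and −0.0196 with the replicate block, against 0.0116, and ranged from −0.35 to 0.30 over left-out libraries. There Cfd for shScr against GFP ranged from −0.0835 to 0.0094, Lep for shDnmt3a against GFP from −0.30 to 0.28, and the difference between the effects for Cfd from −0.0357 to 0.0679. Of the 710 values of that fit, 668 kept direction and side, 20 lost and 12 gained a call, and 10 changed sign.

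Replicate numbers were tried as a block although same-numbered libraries did not deviate together (correlations of −0.0293 to 0.0118 on overexpression and −0.229 to −0.014 on knock-down over 11571 features). Between differently numbered libraries they ran from −0.0274 to 0.0356 on overexpression and from −0.179 to 0.258 on knock-down. Whether the hairpin libraries are related under another numbering was not tested. The replicate block called 2023 features higher and 1830 lower on overexpression, and 3092 and 2931 on knock-down, and left the adipokine counts at 7 and 0, and 4 and 3. With the block, the difference between the effects for Lcn2 was 1.135 (adjusted p = 0.0556). Lep and Lcn2 could not be tested under the filter of 1 CPM in 3 libraries, and DESeq2 gave no adjusted p for them on overexpression. Depth limits Lep, Lcn2 and Rbp4 only, since the other 7 genes had at least 459 counts in every library. The 2 genes nearest to Lep, Cfd, Nampt and Rarres2 shared 0 with those found over the 4 group means, those of Adipoq, Agt, Apln and Lcn2 shared 1, and those of Retn 2.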
